A study of Homo sapiens with 9 samples.

Results

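The muscle-type actins and contractile genes considered here are 10 genes of 36018 counted in each library: the actins ACTC1, ACTA2 and ACTG2, the actin-binding genes TAGLN, CNN1, TPM1, TPM2 and CALD1, the myosin light chain MYL9 and the adhesion gene VCL. They were chosen by name, and the choice used their measured levels: ACTC1 and ACTA2 had been seen to lie on opposite sides of the control in both tolerant lines. The levels of those 2 genes are therefore given as a description with no test, while the other 8 were read from a fit over all genes. All 10 passed the filter on low counts, together with 17902 genes in all.

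RNA was sequenced in 9 libraries, 3 for each of 3 groups, of HCT-15, a long-used human cell line from a colorectal adenocarcinoma. The CoCl2-tolerant line (HCT-15-CoCl2) had been taken through increasing amounts of cobalt chloride, a salt that stabilises hypoxia-inducible factors, until the cells tolerated it. The low-glucose-tolerant line (HCT-15-Lowg) had been selected in the same way with low glucose, and the control was HCT-15 with no treatment. All groups carried the genotype label WT and were grown in RPMI1640 with 10% fetal bovine serum. Each tolerant line is a single derived line, the amounts of the agents are not given in the labels, and no label states whether replicate libraries are separate cultures, so p-values reflect library-to-library spread that may be only technical. The labels also do not say whether the tolerant lines were still kept in the agent when RNA was taken, so a difference from control cannot be assigned to present exposure or to a state kept without it. A brefeldin A-tolerant line of the same study is not analysed here.

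Actin filaments and myosin II form the contractile apparatus. The human genome has 6 main actin genes: ACTB and ACTG1 make the cytoplasmic actins of all cells, ACTA1 and ACTC1 the actins of skeletal and cardiac muscle, and ACTA2 and ACTG2 the smooth muscle actins. Tropomyosins lie along the filament, caldesmon and calponin bind it and restrain myosin's ATPase, transgelin cross-links it, and vinculin ties it to adhesions. Many of these genes are classical targets of serum response factor (SRF), which binds a motif called the CArG box, and of its coactivators MRTFA and MRTFB, which monomeric actin holds in check. In the gut these genes mark smooth muscle and myofibroblasts, and epithelial cells use mainly the cytoplasmic and broadly expressed forms.

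Depth was 25178615 to 32674687 counts per library, so 3 counts, the limit that a count of 0 allows, equal 0.0882 to 0.120 CPM (a gene's counts relative to the library total, scaled by the TMM method). Replicates differed least in control (chi-squared per degree of freedom 2.18 to 6.20), more in CoCl2-tolerant (7.56 to 29.2) and most in low-glucose-tolerant pairs (24.6 to 66.7). The labelled cell type was set against marker genes, and the identity of the line was not tested. Of 17 intestinal epithelial markers, 11 were under 1 CPM in every group, among them CDX1, CDX2, KRT20 and VIL1, while KRT8 averaged 493, 1297 and 657 CPM and EPCAM 21.8, 55.7 and 54.7 CPM in CoCl2-tolerant, low-glucose-tolerant and control libraries. The 17 summed to 1381 to 1677, 2494 to 3404 and 1352 to 1388 CPM in the same order. The summed level of 10 fibroblast markers was 644 to 750 CPM in CoCl2-tolerant, 156 to 196 CPM in low-glucose-tolerant and 2491 to 2532 CPM in control libraries, nearly all of it COL1A1 and THY1. Of these 10, 6 were under 1 CPM in every group. The intestinal markers under 1 CPM and the high COL1A1 and THY1 of control run against the labelled cell type. On the other side, KRT8 and EPCAM were detected and most of the fibroblast markers were under 1 CPM. The groups are therefore called by their labels only. The 10 smooth muscle and pericyte markers summed to 399 to 490, 271 to 323 and 571 to 584 CPM in the same order, mostly MCAM, with 4 of the 10 under 1 CPM in every group. MYH11, the smooth muscle myosin heavy chain, averaged 0.438, 0.290 and 0.493 CPM, and DES, the muscle intermediate filament desmin, 0.0601, 0.0355 and 0.336 CPM. Of the cardiac markers 9 of 10, and of the skeletal muscle markers 8 of 9 found, were under 1 CPM in every group. In these bulk libraries, fewer cells of a type and less RNA per cell cannot be told apart. The part of such cells in the results below was not tested.

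The start regions of the 3 muscle-type actins are shown first because the family is known for the CArG box, which not all of these windows hold. They are RefSeq promoter windows on GRCh38.p14, 250 bases before to 50 after a start site, printed 5′ to 3′ on the gene's strand. Capitals mark CArG boxes (CC, 6 bases of A or T, GG) and near boxes, in which 1 of the 6 core bases is G or C. The ACTC1 window is chr15:34795500-34795799 on the minus strand, the first of 3 windows listed for the gene. ACTA2 has a near start, chr10:88952724-88953023, and a far start, chr10:88991288-88991587, both on the minus strand. The ACTG2 window is chr2:73892758-73893057 on the plus strand.
ACTC1: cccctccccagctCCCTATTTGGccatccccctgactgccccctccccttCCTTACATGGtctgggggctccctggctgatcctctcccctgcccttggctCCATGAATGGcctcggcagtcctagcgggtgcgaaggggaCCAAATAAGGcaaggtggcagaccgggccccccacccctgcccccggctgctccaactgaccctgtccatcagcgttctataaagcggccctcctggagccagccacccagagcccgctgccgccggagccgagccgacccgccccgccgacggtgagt
ACTA2 near start: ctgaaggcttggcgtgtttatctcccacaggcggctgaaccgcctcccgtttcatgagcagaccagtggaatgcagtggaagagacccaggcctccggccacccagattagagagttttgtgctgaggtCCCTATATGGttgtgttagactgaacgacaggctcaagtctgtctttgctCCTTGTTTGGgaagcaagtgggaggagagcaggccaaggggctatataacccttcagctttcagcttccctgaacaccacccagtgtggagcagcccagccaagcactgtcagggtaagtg
ACTA2 far start: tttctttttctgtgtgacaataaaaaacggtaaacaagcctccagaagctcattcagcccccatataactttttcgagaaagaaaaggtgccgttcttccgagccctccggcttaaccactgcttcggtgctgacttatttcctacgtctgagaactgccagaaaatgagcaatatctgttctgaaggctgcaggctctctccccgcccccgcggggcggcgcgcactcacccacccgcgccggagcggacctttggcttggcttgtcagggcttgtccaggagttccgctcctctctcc
ACTG2: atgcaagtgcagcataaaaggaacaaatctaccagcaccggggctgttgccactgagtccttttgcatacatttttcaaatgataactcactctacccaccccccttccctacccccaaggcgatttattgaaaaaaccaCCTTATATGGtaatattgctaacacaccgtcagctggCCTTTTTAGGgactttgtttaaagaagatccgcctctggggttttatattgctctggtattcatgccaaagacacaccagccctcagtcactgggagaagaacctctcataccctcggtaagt

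The ACTC1 window held 1 full box, with its first base 109 bases before the start, and 3 near boxes. ACTG2 held 2 full boxes, 110 and 73 bases before its start. The near start of ACTA2 held 2 near boxes, 121 and 71 bases before the start, and the far start held none. The other 2 ACTC1 windows held none. Among the other members with a window, CALD1 held a near box in 1 of 4 windows, and CNN1, TPM1, TPM2 and VCL held none. Of 35116 windows of all genes, searched on both strands, 1.29% held a full box and 8.13% a full or near box. A match describes letters in a window and is not a binding site.

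ACTC1, the cardiac muscle actin, was present in control cells, low in the CoCl2-tolerant line and close to the counting limit in the low-glucose-tolerant line. The gene lies on chromosome 15, 34788095 to 34795726 (ENSG00000159251, minus strand). Its level was 0.522, 0.630 and 0.212 CPM in the CoCl2-tolerant libraries, 0.102, 0.103 and 0.0724 CPM in the low-glucose-tolerant libraries and 6.37, 8.32 and 6.95 CPM in the control libraries. The 3 groups did not overlap, and the low-glucose-tolerant values rest on 2 or 3 counts per library. Summed over libraries, ACTC1 had 37, 8 and 698 counts. Scaled for depth, the CoCl2-tolerant line held 6.24% of the control level (exact 95% interval for counting error 4.35 to 8.68%) and the low-glucose-tolerant line 1.28% (0.550 to 2.54%). The fitted log2 fold changes were -3.98 ± 0.26 and -6.22 ± 0.34 (SE). Counted from the largest fall among 17902 genes, ACTC1 took place 16 in the CoCl2-tolerant line and place 29 in the low-glucose-tolerant line.

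ACTA2, the actin of vascular smooth muscle and a common marker of myofibroblasts, lay on the other side of the control. The gene lies on chromosome 10, 88935074 to 88991339 (ENSG00000107796, minus strand). It had 23.1, 17.9 and 16.2 CPM in the CoCl2-tolerant libraries, 39.1, 47.4 and 55.3 CPM in the low-glucose-tolerant libraries and 11.6, 10.4 and 11.1 CPM in the control libraries. Every low-glucose-tolerant library was above every CoCl2-tolerant one, and every CoCl2-tolerant library above every control. The log2 fold changes over control were 0.79 ± 0.16 and 2.10 ± 0.16 (SE), or 1.73-fold and 4.28-fold. That placed ACTA2 at the 91.8 percentile of all fold changes in the CoCl2-tolerant line and at the 97.0 percentile in the low-glucose-tolerant line.

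**Figure D1:**
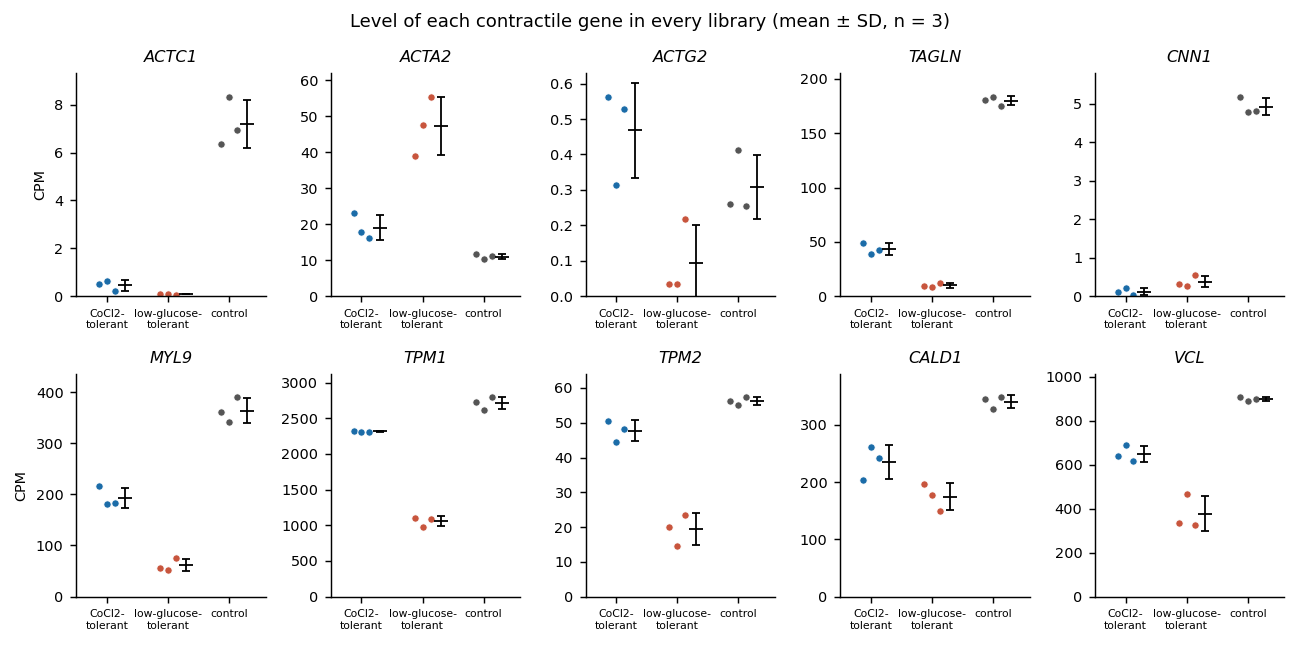
Level in CPM (linear axis from 0, a scale of its own in each panel) of the 10 genes in each of the 9 libraries, with CoCl2-tolerant, low-glucose-tolerant and control libraries from left to right; points are libraries and the bar beside them is the mean ± SD of 3. ACTA2 is highest in the low-glucose-tolerant libraries, at 39.1 to 55.3 CPM, while ACTC1 is highest in the control libraries, at 6.37 to 8.32 CPM.

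ACTG2, the smooth muscle actin of the gut wall, was a trace transcript throughout. It had 0.562, 0.315 and 0.530 CPM in CoCl2-tolerant, 0.0340, 0.0343 and 0.217 CPM in low-glucose-tolerant and 0.260, 0.411 and 0.254 CPM in control libraries, from 38, 8 and 30 counts in all. CoCl2-tolerant and control libraries overlapped, and the difference did not pass the test (log2 fold change 0.58 ± 0.46, edgeR adjusted p = 0.346). The low-glucose-tolerant libraries lay below both other groups and the fall passed against control (-1.70 ± 0.62, adjusted p = 0.0238). Without low-glucose-tolerant replicate 3, which holds most of the counts of its group, the value was -3.03 (adjusted p = 0.00272). The call was lost with DESeq2 (adjusted p = 0.0600), without control replicate 2 (0.0982) and without low-glucose-tolerant replicate 1 (0.0978) or 2 (0.0884). Its gene lies on chromosome 2, 73892314 to 73919865 (ENSG00000163017).

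The makeup of the muscle-type actin pool differed between the groups. ACTC1 made up 1.23 to 3.28% of the counts of ACTC1, ACTA2, ACTG2 and ACTA1 in CoCl2-tolerant, 0.130 to 0.260% in low-glucose-tolerant and 34.9 to 43.0% in control libraries. ACTA2 made up 93.3 to 94.4%, 99.4 to 99.6% and 53.8 to 63.5% in the same order. Per kb of exon, the ratio of the ACTC1 to the ACTA2 level was 0.00845 to 0.0227 in CoCl2-tolerant, 0.000846 to 0.00169 in low-glucose-tolerant and 0.355 to 0.517 in control libraries. Muscle-type actins as a whole stayed a small part of the actin counts, at 0.122 to 0.143%, 0.399 to 0.479% and 0.110 to 0.119% of the counts of the 6 actin genes. The low-glucose-tolerant share had a smaller base: its libraries gave 0.962 to 1.07% of all counts to the 6 actins, against 1.48 to 1.69% in CoCl2-tolerant and 1.67 to 1.70% in control libraries.

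The cytoplasmic actins made up nearly all of that pool. ACTB averaged 7259 ± 314 CPM in the CoCl2-tolerant, 3852 ± 417 CPM in the low-glucose-tolerant and 8059 ± 179 CPM in the control libraries (SD, n = 3 each). It fell in the low-glucose-tolerant line (log2 fold change -1.07 ± 0.11, adjusted p = 7.81e-07) and did not pass in the CoCl2-tolerant line (-0.15 ± 0.11, adjusted p = 0.292). ACTG1 had a log2 fold change of -0.34 ± 0.13 in the low-glucose-tolerant line (adjusted p = 0.0254), a call lost without any 1 of the control libraries or without low-glucose-tolerant replicate 1 (adjusted p 0.0556 to 0.103). ACTA1, the skeletal muscle actin, did not pass the filter, with 25, 4 and 12 counts over the CoCl2-tolerant, low-glucose-tolerant and control libraries. Of the 3 other actin genes tested (ACTB, ACTG1, ACTBL2), 0 passed in the CoCl2-tolerant line with edgeR, 0 at an unadjusted p under 0.05 and 0 with DESeq2, and all 3 fell in the low-glucose-tolerant line. Over all 17902 genes, edgeR called 36.1% in the CoCl2-tolerant comparison and 69.2% in the low-glucose-tolerant one, 34.6% lower.

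**Figure D2:**
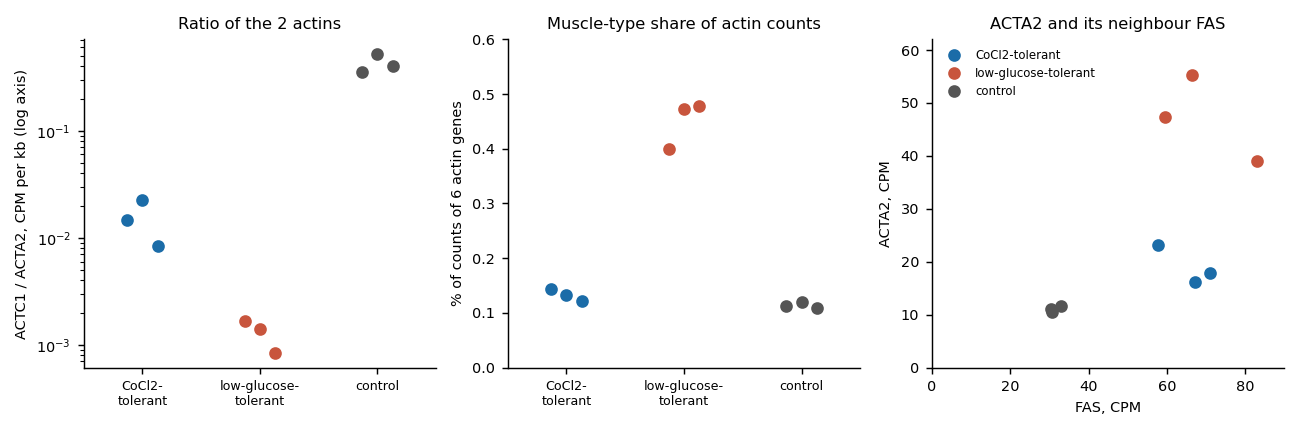
Left, ratio of ACTC1 to ACTA2 per kb of exon (log axis); middle, counts of ACTC1, ACTA2, ACTG2 and ACTA1 as a percentage of the counts of 6 actin genes; right, ACTA2 against FAS in CPM; each point is 1 of 9 libraries, coloured by group. The ratio is 0.355 to 0.517 in control and at most 0.0227 in the tolerant lines, and the muscle-type share is 0.399 to 0.479% in the low-glucose-tolerant libraries.

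Actin genes are close in sequence, so the counts were checked for shared reads. The coding sequences of ACTC1 and ACTA2 match at 970 of 1134 bases (85.5%), and those of ACTB and ACTG1 at 91.2%. In GENCODE release 29 transcripts, 5.78% of the 100-base windows of ACTC1 also occur, on either strand, in another gene, the antisense gene AC087457.1, and none occurs in another actin. For ACTA2 the share was 19.3%, from ACTA2-AS1 and FAS. For TAGLN it was 8.21% (PCSK7), for VCL 9.86% (AP3M1), for TPM1 15.9% (2 antisense genes), and for ACTG2, CNN1, MYL9, TPM2 and CALD1 it was 0. The strand setting of the counts is not given in the sources used here, so reads in these overlaps cannot be assigned to one partner. The same limit holds for list genes named below that share exon bases with another gene. Examples are CAP1 (31.2%, with PPT1), CFL1 (19.0%, with MUS81 and SNX32) and ACTN4 (14.2%, with CAPN12), all on the opposite strand.

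FAS, the death receptor gene, overlaps ACTA2 head to head on the opposite strand. The far ACTA2 start lies 755 bases inside FAS and 38564 bases upstream of the near one, and 380 exon bases, 12.8% of those of ACTA2, are shared. FAS had 57.8, 71.1 and 67.2 CPM in CoCl2-tolerant, 83.0, 59.6 and 66.3 CPM in low-glucose-tolerant and 33.0, 30.6 and 30.5 CPM in control libraries. It rose in both lines, by a log2 fold change of 1.06 ± 0.13 (adjusted p = 3.30e-05) and 1.15 ± 0.13 (adjusted p = 2.71e-06). STAMBPL1, a deubiquitinase gene on the strand of FAS whose span reaches into that of ACTA2 without shared exon bases, also rose, by 0.99 ± 0.13 (adjusted p = 5.37e-05) and 1.13 ± 0.13 (adjusted p = 2.76e-06). Between the lines FAS did not pass the test (CoCl2-tolerant over low-glucose-tolerant -0.09 ± 0.13, adjusted p = 0.552), whereas ACTA2 had -1.31 ± 0.15. ACTA2-AS1 was under the filter, with 15, 8 and 8 counts in CoCl2-tolerant, low-glucose-tolerant and control libraries. Near ACTC1, the connexin gene GJD2 was under the filter, with 0, 0 and 3 counts in the same order. AQR, a splicing helicase gene that lies farther from ACTC1 than GJD2 on the other side, was lower by a log2 fold change of -0.37 ± 0.13 in the CoCl2-tolerant line (adjusted p = 0.0440, and 0.0693 to 0.139 without any 1 CoCl2-tolerant or control library) and -0.71 ± 0.13 in the low-glucose-tolerant line (adjusted p = 0.000296).

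Of the 8 members tested, 5 fell in the CoCl2-tolerant line against control and 3 did not pass, and 0 rose (0 at an unadjusted p under 0.05 and 0 with DESeq2). In this comparison edgeR called 36.1% of all genes, 18.2% lower and 17.9% higher. In the low-glucose-tolerant line all 8 fell and 0 rose (again 0 at an unadjusted p under 0.05 and 0 with DESeq2), beside a background of 69.2% of all genes called, 34.6% lower and 34.6% higher. The median log2 fold change over all 10 members was -0.50 in the CoCl2-tolerant and -1.62 in the low-glucose-tolerant line, against 0.01 and -0.01 over all genes tested. Libraries of the CoCl2-tolerant line lay wholly below control for 7 of the 8 (28.8% of all genes), and libraries of the low-glucose-tolerant line for 8 of 8 (36.9% of all genes). Both comparisons share the control libraries. CNN1, counted among the falls in both lines, passed the filter on low counts only through its control libraries.

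TAGLN, which encodes the early smooth muscle protein transgelin, fell in both lines. It had 48.9, 38.5 and 42.4 CPM in CoCl2-tolerant, 9.31, 8.40 and 12.5 CPM in low-glucose-tolerant and 181, 183 and 175 CPM in control libraries, with wide gaps between all 3 groups. The log2 fold changes were -2.05 ± 0.14 (adjusted p = 1.11e-07) and -4.16 ± 0.16 (adjusted p = 4.38e-11), a 4.15-fold and a 17.9-fold fall. Its gene lies on chromosome 11, 117199321 to 117204782 (ENSG00000149591).

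CNN1, the smooth muscle calponin that restrains the myosin ATPase, was the one gene of the 8 tested that was lower in the CoCl2-tolerant than in the low-glucose-tolerant line. It had 0.120, 0.210 and 0.0353 CPM in CoCl2-tolerant, 0.306, 0.274 and 0.543 CPM in low-glucose-tolerant and 5.17, 4.79 and 4.80 CPM in control libraries. Over the libraries that was 10, 32 and 473 counts, or 2.49% (exact 95% interval for counting error 1.19 to 4.62%) and 7.55% (5.11 to 10.8%) of the control level. The fall passed in both lines, with log2 fold changes of -5.28 ± 0.34 (adjusted p = 7.09e-08) and -3.71 ± 0.28 (adjusted p = 3.71e-08). CNN1 passed the filter on low counts only through its control libraries, the group in which it is high. Its p-values and its rank are to be read with that limit. Without CoCl2-tolerant replicate 2 the first of these was -5.95. In the CoCl2-tolerant line its fold change was the fifth lowest of 17902 genes. CNN1 lies on chromosome 19, 11538717 to 11550323 (ENSG00000130176).

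MYL9, the regulatory light chain through which kinases switch on smooth muscle and non-muscle myosin II, was far more abundant. Its levels were 216, 181 and 183 CPM in CoCl2-tolerant, 56.4, 52.6 and 74.4 CPM in low-glucose-tolerant and 361, 341 and 389 CPM in control libraries, again with no overlap. The log2 fold changes were -0.91 ± 0.13 (adjusted p = 0.000129) and -2.57 ± 0.14 (adjusted p = 1.35e-09). The gene lies on chromosome 20, 36541484 to 36551447 (ENSG00000101335).

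Both tropomyosins were higher in the CoCl2-tolerant than in the low-glucose-tolerant line (log2 fold changes 1.14 ± 0.10, adjusted p = 2.20e-07, and 1.30 ± 0.15, adjusted p = 3.19e-06). TPM1, on chromosome 15 at 63042632 to 63071915 (ENSG00000140416), had 2322, 2316 and 2313 CPM in CoCl2-tolerant, 1098, 973 and 1091 CPM in low-glucose-tolerant and 2736, 2616 and 2794 CPM in control libraries. TPM2, on chromosome 9 at 35681992 to 35690121 (ENSG00000198467), had 50.4, 44.5 and 48.1 CPM, then 20.0, 14.5 and 23.6 CPM, then 56.2, 55.0 and 57.3 CPM in the same order of groups. Each group lay apart from the others for both genes. Against control, TPM1 fell in the low-glucose-tolerant line (log2 fold change -1.37 ± 0.10, adjusted p = 2.58e-08), as did TPM2 (-1.54 ± 0.15, adjusted p = 4.58e-07). In the CoCl2-tolerant line TPM1 (-0.23 ± 0.10, adjusted p = 0.0822) and TPM2 (-0.24 ± 0.14, adjusted p = 0.216) did not pass. TPM1 passed there with DESeq2 (adjusted p = 0.0338), without low-glucose-tolerant replicate 2 (0.0209) and in a fit of only the 2 groups compared (0.0167), and TPM2 in that last fit (0.0214).

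CALD1, for caldesmon, and VCL, for vinculin, had the smallest falls in the low-glucose-tolerant line. CALD1 had 203, 262 and 242 CPM in CoCl2-tolerant, 197, 177 and 150 CPM in low-glucose-tolerant and 346, 327 and 348 CPM in control libraries. It fell by a log2 fold change of -0.53 ± 0.12 (adjusted p = 0.00439) and -0.96 ± 0.12 (adjusted p = 8.83e-06). VCL had 638, 691 and 618 CPM in CoCl2-tolerant, 335, 467 and 327 CPM in low-glucose-tolerant and 905, 889 and 899 CPM in control libraries. Its log2 fold changes were -0.47 ± 0.13 (adjusted p = 0.0124, and 0.0565 without CoCl2-tolerant replicate 3) and -1.25 ± 0.13 (adjusted p = 1.12e-06). Neither gene had groups that overlapped. CALD1 lies on chromosome 7, 134744252 to 134970728 (ENSG00000122786), and VCL on chromosome 10, 73995193 to 74121363 (ENSG00000035403).

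**Figure D3:**
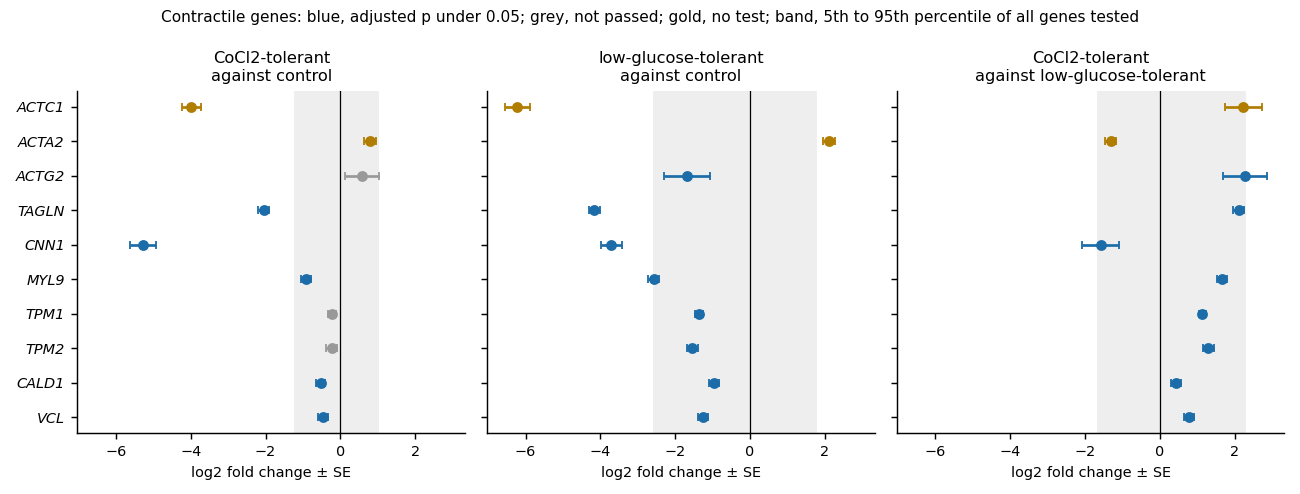
Fitted log2 fold change ± SE of the 10 genes in the 3 comparisons, on one linear axis; blue marks an adjusted p under 0.05, grey a gene that did not pass, gold the 2 genes given without a test, and the grey band the 5th to 95th percentile of 17902 genes. ACTC1 sits at -3.98 and -6.22 and ACTA2 at 0.79 and 2.10 against control, and CNN1 is the lowest point in the CoCl2-tolerant line, at -5.28.

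The tolerant lines were compared directly. Of the 8 members tested, 7 were higher in the CoCl2-tolerant than in the low-glucose-tolerant line and 1, CNN1, was lower, beside 63.9% of all genes called, 31.9% higher and 32% lower. Libraries did not overlap for any of the 8, as for 31.7% of all genes on the higher and 31.5% on the lower side. Differences (CoCl2-tolerant over low-glucose-tolerant) ran, for the 7, from a log2 fold change of 0.43 ± 0.12 for CALD1 (adjusted p = 0.00716) to 2.27 ± 0.59 for ACTG2 (adjusted p = 0.00366, and 3.61 without low-glucose-tolerant replicate 3, adjusted p = 0.000604), and TAGLN stood at 2.11 ± 0.15 (adjusted p = 2.02e-08). CNN1 differed by -1.57 ± 0.49 (adjusted p = 0.0122), from 10 counts in the CoCl2-tolerant and 32 in the low-glucose-tolerant libraries. The difference was -2.24 without CoCl2-tolerant replicate 2, and it no longer passed without CoCl2-tolerant replicate 3 (adjusted p = 0.0578) or low-glucose-tolerant replicate 3 (adjusted p = 0.0575). ACTC1 differed by 2.24 ± 0.50 and ACTA2 by -1.31 ± 0.15, given without a test.

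Per kb of exon, TPM1 was the highest member in every group, at 180 ± 0.351, 81.9 ± 5.43 and 211 ± 7.03 CPM per kb in CoCl2-tolerant, low-glucose-tolerant and control libraries (SD, n = 3 each). It alone gave 65.2 to 66.8%, 55.9 to 62.9% and 59.0 to 59.6% of the summed CPM of the 10 genes. In the CoCl2-tolerant line MYL9 and VCL followed with overlapping libraries, then CALD1, TPM2, TAGLN and ACTA2 in order with no overlap, and ACTG2, ACTC1 and CNN1 shared the lowest place, overlapping each other in turn. The low-glucose-tolerant order was VCL, then MYL9, CALD1 and ACTA2, of which neighbours overlapped, then TPM2, TAGLN and CNN1, with ACTG2 and ACTC1 overlapping at the bottom. Control libraries ran from MYL9, VCL, TAGLN, CALD1 and TPM2 down to ACTA2, and CNN1 and ACTC1 overlapped above ACTG2. ACTA2, at 6.41 ± 1.20, 15.9 ± 2.73 and 3.71 ± 0.201 CPM per kb, was thus the seventh member in the CoCl2-tolerant line, the fifth in the low-glucose-tolerant line and the seventh in control.

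Other genes of the contractile system were read from lists. Of 6 paralogues of the thin-filament members, 5 were higher in the CoCl2-tolerant than in the low-glucose-tolerant line, beside 31.9% of all genes. Against control, 0 of the 6 passed in the CoCl2-tolerant line with edgeR (1 lower at an unadjusted p under 0.05, TAGLN2, and 0 with DESeq2). In the low-glucose-tolerant line 5 of 6 fell. Of all genes, 36.1% were called in the CoCl2-tolerant line, 18.2% lower, and 69.2% in the low-glucose-tolerant line, 34.6% lower. TPM4, a tropomyosin of non-muscle cells, averaged 659 ± 75.0, 141 ± 13.3 and 653 ± 24.7 CPM in CoCl2-tolerant, low-glucose-tolerant and control libraries. Its log2 fold change in the low-glucose-tolerant line was -2.21 ± 0.12 (adjusted p = 1.17e-09). TAGLN3, a transgelin known from neurons, fell there by 2.71 ± 0.16 on the log2 scale (adjusted p = 3.01e-09), the calponin CNN3 fell by 1.49 ± 0.10 (adjusted p = 8.21e-09) and CNN2 fell by 0.84 ± 0.10 (adjusted p = 3.97e-06). TAGLN2, the broadly expressed transgelin, did not pass in the CoCl2-tolerant (-0.30 ± 0.12, adjusted p = 0.0661) or in the low-glucose-tolerant line (-0.15 ± 0.12, adjusted p = 0.288). It was the 1 paralogue lower in the CoCl2-tolerant line without CoCl2-tolerant replicate 1 or low-glucose-tolerant replicate 2 or 3 (adjusted p 0.0267 to 0.0417). The fall of TPM3 in the low-glucose-tolerant line (-0.35 ± 0.11, adjusted p = 0.0108) did not pass without control replicate 1 (adjusted p = 0.0570). The median of the list was -0.07 and -1.17, against -0.50 and -1.62 for the 10 members.

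Of 15 smooth muscle contractile genes, 11 passed the filter. In the CoCl2-tolerant line 5 fell and 1 rose, and in the low-glucose-tolerant line 8 fell and 2 rose, with medians of -0.18 and -1.11, beside 36.1% and 69.2% of all genes called. MYLK, the kinase that phosphorylates the myosin light chain, averaged 239 ± 15.3, 189 ± 60.9 and 407 ± 3.35 CPM in CoCl2-tolerant, low-glucose-tolerant and control libraries, and fell in both lines (-0.77 ± 0.17, adjusted p = 0.00273; -1.11 ± 0.17, adjusted p = 3.96e-05). LMOD1, a leiomodin that nucleates actin filaments in smooth muscle, had log2 fold changes of -1.38 ± 0.30 (adjusted p = 0.00254) and -1.36 ± 0.29 (adjusted p = 0.000854), with 0.500 and 0.509 CPM in the tolerant lines and 1.31 CPM in control. SYNPO2, for the filament-binding protein synaptopodin 2, also fell in both (-1.34 ± 0.22, adjusted p = 0.000374; -0.71 ± 0.21, adjusted p = 0.00836), as did the LIM-domain gene PDLIM7 (-0.49 ± 0.12, adjusted p = 0.00489; -1.72 ± 0.12, adjusted p = 1.41e-08). PPP1R12B, a regulatory subunit of myosin phosphatase, fell in the CoCl2-tolerant line (-0.54 ± 0.16, adjusted p = 0.0180), a call lost without any 1 control library or CoCl2-tolerant replicate 3 (adjusted p 0.0506 to 0.0698), and in the low-glucose-tolerant line (-0.75 ± 0.16, adjusted p = 0.000782). The filament cross-linkers ACTN1 (-1.68 ± 0.12, adjusted p = 2.01e-08) and FLNA (-1.48 ± 0.16, adjusted p = 1.63e-06) fell in the low-glucose-tolerant line, and neither passed in the CoCl2-tolerant line (adjusted p = 0.317 and 0.817). FHL1, a LIM-domain protein of muscle, rose in the low-glucose-tolerant line (1.55 ± 0.10, adjusted p = 4.93e-09). SMTN, for the filament-binding protein smoothelin, rose in the CoCl2-tolerant (0.47 ± 0.10, adjusted p = 0.00349) and fell in the low-glucose-tolerant line (-1.16 ± 0.11, adjusted p = 2.73e-07); it was picked out after its values were seen. MYH11 did not pass in either line (adjusted p = 0.744 and 0.121).

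The myosin II motor genes were read in the same way. MYH9, the main non-muscle myosin II heavy chain, averaged 8150 ± 626, 3370 ± 674 and 9108 ± 210 CPM in CoCl2-tolerant, low-glucose-tolerant and control libraries. It fell in the low-glucose-tolerant line (-1.43 ± 0.14, adjusted p = 3.58e-07) and did not pass in the CoCl2-tolerant line (-0.16 ± 0.13, adjusted p = 0.367). MYH10, its partner heavy chain, fell in both (-0.69 ± 0.12, adjusted p = 0.000542; -1.37 ± 0.12, adjusted p = 1.82e-07). Over the 7 non-muscle myosin genes, 2 fell and 1 rose in the CoCl2-tolerant line and 4 fell and 1 rose in the low-glucose-tolerant line. Of all genes, 36.1% and 69.2% were called in the same comparisons, and the called share of this list lies near both. The rise of MYL12A in the CoCl2-tolerant line (0.42 ± 0.13, adjusted p = 0.0205) was lost without any 1 of the control libraries or without CoCl2-tolerant replicate 3 (adjusted p 0.0512 to 0.0771), and the count of rises was 2 without CoCl2-tolerant replicate 2 or low-glucose-tolerant replicate 2 or 3. MYL6B, a myosin light chain, rose in the low-glucose-tolerant line (1.09 ± 0.17, adjusted p = 6.27e-05). The light chain MYL6 fell there (-0.57 ± 0.22, adjusted p = 0.0350), a call lost without control replicate 1 or 2 or low-glucose-tolerant replicate 1 or 2 (adjusted p 0.0568 to 0.140). Of 24 sarcomere genes of striated muscle, 8 passed the filter. In the CoCl2-tolerant line 3 fell and 1 rose (0 without control replicate 3, 2 without low-glucose-tolerant replicate 2 or 3), beside 36.1% of all genes called. In the low-glucose-tolerant line 4 fell and 3 rose, beside 69.2% of all genes called. MYH3, the embryonic myosin heavy chain, had 2.26, 0.734 and 4.12 CPM in CoCl2-tolerant, low-glucose-tolerant and control libraries and fell in both lines (-0.87 ± 0.20, adjusted p = 0.00408; -2.49 ± 0.23, adjusted p = 3.08e-07). NEB, for the thin-filament protein nebulin, had 2.90, 1.01 and 4.83 CPM and also fell in both (-0.73 ± 0.17, adjusted p = 0.00433; -2.26 ± 0.19, adjusted p = 1.38e-07). Among the troponin genes TNNC1, a troponin C, had 0.399, 0.896 and 2.23 CPM in CoCl2-tolerant, low-glucose-tolerant and control libraries, and TNNI3, the cardiac troponin I, 0.0369, 1.19 and 0.157 CPM. TNNC1 fell in both lines (-2.46 ± 0.35, adjusted p = 0.000105; -1.31 ± 0.31, adjusted p = 0.00152), and TNNI3 rose in the low-glucose-tolerant line (2.89 ± 0.48, adjusted p = 9.69e-05). TNNI3 had 3, 102 and 15 counts in all, in the same order of groups. It passed the filter only through the low-glucose-tolerant libraries, the group called higher. On the same strand, 24.4% of its exon bases are shared with the gene AC010327.1, so reads there cannot be assigned to either.

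SRF, the factor that binds the CArG box, was modestly lower in both lines, at 55.4 ± 4.98, 60.7 ± 4.17 and 76.7 ± 2.06 CPM in CoCl2-tolerant, low-glucose-tolerant and control libraries. The log2 fold changes were -0.47 ± 0.11 (adjusted p = 0.00347) and -0.34 ± 0.11 (adjusted p = 0.0107, and 0.0515 without control replicate 3). Its coactivator MRTFA fell in the low-glucose-tolerant line (-0.77 ± 0.12, adjusted p = 3.43e-05) and did not pass in the CoCl2-tolerant line (-0.27 ± 0.11, adjusted p = 0.0779), where it passed without low-glucose-tolerant replicate 1 or 2 (adjusted p = 0.0495 and 0.0137). MRTFB fell in the CoCl2-tolerant line (-0.82 ± 0.22, adjusted p = 0.00913) and did not pass in the low-glucose-tolerant line (-0.22 ± 0.21, adjusted p = 0.372), where it passed without replicate 2 of that line (-0.62, adjusted p = 0.000463). KLF4, known in smooth muscle cells as a repressor of SRF targets, rose in both, at 8.10 ± 0.445, 20.5 ± 0.739 and 5.37 ± 0.345 CPM (0.59 ± 0.12, adjusted p = 0.00183; 1.94 ± 0.12, adjusted p = 4.59e-09). FHL2, a LIM-domain partner of SRF, also rose in both (0.50 ± 0.12, adjusted p = 0.00438; 2.08 ± 0.12, adjusted p = 2.38e-09), and ELK3, an ETS factor that pairs with SRF, rose in the low-glucose-tolerant line (1.11 ± 0.12, adjusted p = 2.14e-06). SCAI, an inhibitor of MRTFA, fell in both (-0.72 ± 0.16, adjusted p = 0.00340; -0.80 ± 0.16, adjusted p = 0.000519). Of 10 SRF and MRTF regulators past the filter, 3 fell and 2 rose in the CoCl2-tolerant line and 3 fell and 4 rose in the low-glucose-tolerant line, with medians of -0.21 and 0.16. The 7 of 10 called in the low-glucose-tolerant line lie near the 69.2% of all genes called there, and the 5 of 10 in the CoCl2-tolerant line stand beside 36.1%.

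Of 17 focal adhesion and cross-linking genes, 5 fell and 2 rose in the CoCl2-tolerant and 8 fell and 2 rose in the low-glucose-tolerant line, with medians of -0.25 in both. Over all genes the called share was 36.1% and 69.2%, and the called share of this list is near the first and below the second. The CoCl2-tolerant count of falls was 3 without control replicate 2 or CoCl2-tolerant replicate 3 and 8 without low-glucose-tolerant replicate 2, and the count of rises was 1 without any 1 control library or CoCl2-tolerant replicate 2 or 3. ACTN4, a non-muscle alpha-actinin, fell in both (-0.54 ± 0.13, adjusted p = 0.00605; -1.45 ± 0.14, adjusted p = 3.15e-07), and TES, for the zyxin-binding protein testin, rose in both (0.50 ± 0.10, adjusted p = 0.00177; 1.98 ± 0.11, adjusted p = 1.14e-09). The LIM-domain gene PDLIM5 fell in both (-0.93 ± 0.15, adjusted p = 0.000249; -0.58 ± 0.15, adjusted p = 0.00257). LPP, a LIM-domain protein of adhesions, fell in the CoCl2-tolerant line (-0.53 ± 0.16, adjusted p = 0.0169), a call lost without control replicate 2 or CoCl2-tolerant replicate 1 or 3 (adjusted p 0.0521 to 0.0561), and in the low-glucose-tolerant line (-0.80 ± 0.16, adjusted p = 0.000403). In the low-glucose-tolerant line the integrin-linked genes TLN2 (-1.61 ± 0.18, adjusted p = 1.75e-06) and FERMT2 (-1.20 ± 0.12, adjusted p = 7.58e-07) fell as well. Among 14 genes of actin monomer binding and filament turnover, 2 fell and 3 rose in the CoCl2-tolerant and 6 fell and 1 rose in the low-glucose-tolerant line, with medians of 0.11 and -0.21. The called share of this list is also near the 36.1% of all genes in the first and below the 69.2% in the second. The 2 falls in the CoCl2-tolerant line were 0 without control replicate 3 or CoCl2-tolerant replicate 3 and 1 without replicate 2 of either group, and the 1 rise in the low-glucose-tolerant line was 2 without CoCl2-tolerant replicate 1 or low-glucose-tolerant replicate 2 or 3. CFL1, for cofilin, averaged 1045 ± 85.9, 496 ± 84.0 and 941 ± 17.1 CPM and fell in the low-glucose-tolerant line (-0.93 ± 0.12, adjusted p = 1.26e-05), where CAP1, which recycles actin monomers, also fell (1.99-fold, adjusted p = 3.56e-07). TMSB10, a monomer-binding thymosin, rose in the CoCl2-tolerant line (0.80 ± 0.18, adjusted p = 0.00401). TMOD2, a tropomodulin that caps filament ends, also rose there (1.74 ± 0.33, adjusted p = 0.00113), and TMOD3, a relative in non-muscle cells, fell in the low-glucose-tolerant line (-1.28 ± 0.17, adjusted p = 1.05e-05). The 2 falls in the CoCl2-tolerant line were CAP2, a relative of CAP1 (-0.44 ± 0.12, adjusted p = 0.0105), and GSN, for the severing protein gelsolin (-0.43 ± 0.13, adjusted p = 0.0166). CAP2 also fell in the low-glucose-tolerant line (-0.81 ± 0.12, adjusted p = 3.09e-05).

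**Figure D4:**
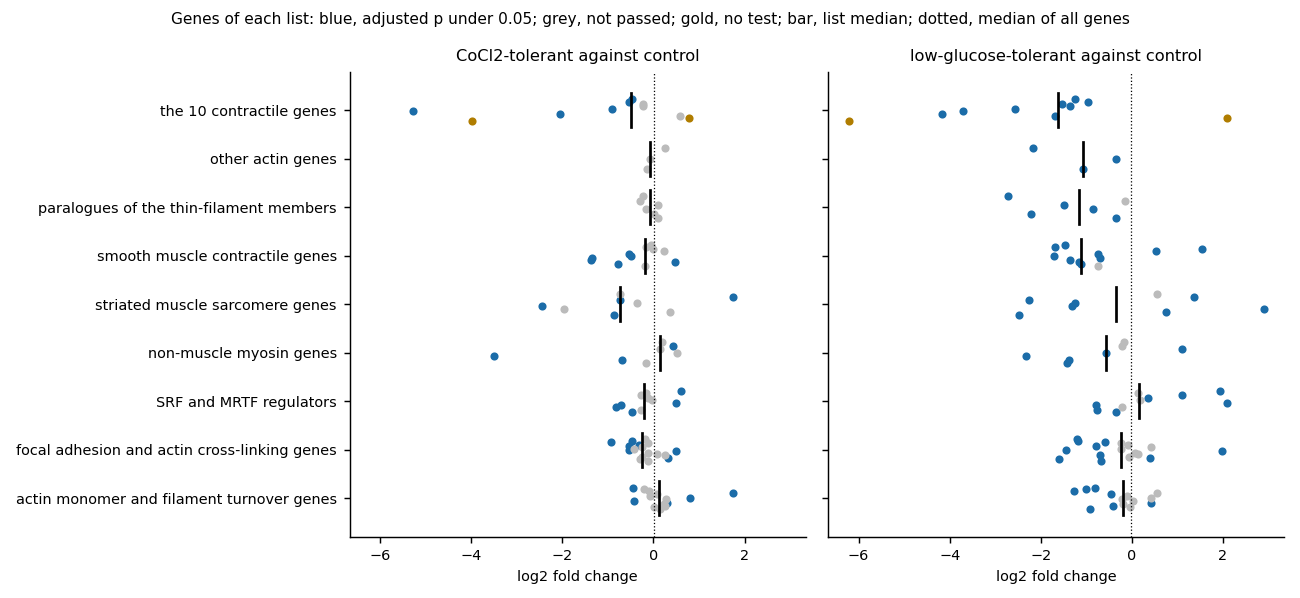
Fitted log2 fold change against control of each gene past the filter, by list, for the CoCl2-tolerant line (left) and the low-glucose-tolerant line (right); blue marks an adjusted p under 0.05, grey a gene that did not pass, gold ACTC1 and ACTA2, the bar the list median and the dotted line the median of all genes. Medians of the paralogue list are -0.07 and -1.17 and those of the 10 contractile genes -0.50 and -1.62.

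Across the 9 libraries, the genes whose profile was most like that of ACTC1 were FLJ16779, an antisense RNA gene, PSG8, a pregnancy-specific glycoprotein gene, and ACSM2A, a medium-chain acyl-CoA synthetase gene. Likeness was the root mean square difference of mean-centred log2 CPM among 15150 genes, and it was 0.38, 0.49 and 0.51 for the 3. FLJ16779 averaged 1.34 ± 0.247, 0.668 ± 0.215 and 27.7 ± 0.235 CPM in CoCl2-tolerant, low-glucose-tolerant and control libraries. Among the members, TAGLN stood closest to ACTC1, in place 26 (0.88), followed by CNN1 in place 130 (1.25). Profiles near that of ACTA2 included those of SHMT2, a mitochondrial enzyme of serine metabolism, at 0.09, and RBCK1, a ubiquitin ligase subunit, at 0.10. SHMT2 averaged 468 ± 67.6, 1132 ± 132 and 266 ± 8.93 CPM in the same order of groups. The nearest member to ACTA2 among those compared was CALD1, in place 11941 (1.28). These are descriptions with no test.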

How the data were processed

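The deposited files, 1 per library, hold raw read counts per gene, checked to be whole numbers. Per the labels' protocols, RNA was extracted with TRIzol, and the mRNA was fragmented, copied to cDNA, amplified by PCR and read on a NovaSeq instrument. The submitters' processing notes name featureCounts, DESeq2 and build GRCh38 without versions. Which aligner, annotation release and strand option they used is not given in the sources used here. With no molecular identifiers, counting intervals and limits cover counting error only.

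Symbols were matched to 35938 of 36018 gene identifiers, and GENCODE release 29 named a further 76 and placed 34888 on the genome. Of 174 symbols in the lists, 169 were matched. The members and all lists were chosen with earlier results of these data known. The test was edgeR 4.0.16 (R 4.3.3) with filterByExpr by group, TMM scaling, a quasi-likelihood F test on all 9 libraries with one mean per group (common biological coefficient of variation 12.6%) and Benjamini-Hochberg adjustment over 17902 genes, called under 0.05. ACTC1 and ACTA2 were given no test. Named genes are the members, some fixed by name, and for each list and comparison against control up to 4 that passed, had 1 CPM or more in the higher group and changed most. CPM use the library total times the TMM factor, and CPM per kb the exon bases of GENCODE release 29. Likeness of profiles used log2 CPM with a prior count of 2 and genes with at least 1 CPM in a group.

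Simulated counts of 17902 genes tested the fit. In the CoCl2-tolerant comparison it found 38.8% of 1.5-fold, 100% of 2-fold and 100% of 4-fold changes (7.02% false calls), in the low-glucose-tolerant comparison 53.7, 98.5 and 100% (6.67%), and in the direct one 35.8, 92.5 and 100% (3.80%). False calls in the comparisons against control were thus above the threshold of 0.05. Only 67, 67 and 66 well-counted genes were changed at the 3 folds, and all others were left alike. The rates therefore do not carry over to genes with few counts, such as CNN1 and ACTG2, or to comparisons in which many genes change. No replicate pair agreed within counting error. Residuals of same-numbered libraries of different groups had correlations of -0.260 to 0.124, and those of different-numbered libraries -0.242 to 0.205. With 3 libraries per group these values cannot exclude a pairing. No label states a pairing, and the main fit used none. Alternatives were DESeq2 1.42.0, its size factors, library totals, no filter, a filter at 5 CPM in 3 libraries, only the 2 groups compared, a replicate block and each library left out. Python 3.11.15 with numpy 2.4.6, pandas 2.3.3, scipy 1.17.1 and matplotlib 3.10.9 drew the figures and wrote the tables. The results of 1 list and 1 gene are not reported here.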

Additional observations from a re-analysis of the deposited data

How the results depend on the processing

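Over 16 alternatives, the members that fell in the CoCl2-tolerant line numbered 4 to 7 (5 as reported) and in the low-glucose-tolerant line 6 to 8 (8 as reported), and those higher in the direct comparison 6 or 7. The 6 falls in the low-glucose-tolerant line came with the filter at 5 CPM, under which CNN1 and ACTG2 were not tested. In the direct comparison, 6 were higher where ACTG2 was not tested. The 1 member lower there, CNN1, gave 0 with the filter at 5 CPM in 3 libraries and 0 in a fit of only the 2 groups compared, where it was not tested, and 0 to 1 with a library left out. ACTC1 and ACTA2 kept their direction in every alternative in which they were fitted. They were chosen for those directions in the same libraries, so this is a description and no support. The values of the other members that crossed the threshold stand beside those members in the report. With the replicate block, which no label justifies, 5 and 8 members fell, 7 were higher and 1 lower, and 6091, 12118 and 11135 genes passed in all against 6459, 12394 and 11440; it ended none of the members' calls. Over all alternatives these totals ran from 4463 to 8552, from 8466 to 13663 and from 7740 to 12421, and the number of genes tested changed with the filter. The shares of all genes set beside the lists are those of the main fit. Library totals moved the median fold change of all genes in the low-glucose-tolerant line by -0.10. Of other listed genes, 1 turned round: COL1A2 in the low-glucose-tolerant line, 0.19 as fitted on all libraries (adjusted p = 0.847), ranged from -2.84 without low-glucose-tolerant replicate 3 (adjusted p = 0.00307), the library with most of its counts in that line, to 0.76 without replicate 1 of the same line. Counts of called genes in the other lists kept within 1.5 times in 1318 cases and moved beyond it in 122. Depth limits ACTC1, CNN1 and ACTG2, whose tolerant-line levels rest on at most 18 counts per library.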

Other observations

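Some genes counted in the lists and marker sums above were not described there one by one. COL1A1, the collagen chain that fibroblasts secrete in bulk, averaged 250 ± 17.2 CPM in CoCl2-tolerant, 21.5 ± 1.85 CPM in low-glucose-tolerant and 1855 ± 27.4 CPM in control libraries (SD, n = 3 each), while its partner chain COL1A2 averaged 0.365, 1.89 and 1.63 CPM. RGS5, a regulator of G-protein signalling used as a pericyte marker, averaged 4.76 ± 0.985, 5.97 ± 1.48 and 19.0 ± 1.25 CPM, and MCAM, an adhesion molecule of pericytes and melanoma cells, 424 ± 46.3, 281 ± 25.5 and 540 ± 8.05 CPM. TTN, the giant spring of the sarcomere, was read at 8.70 ± 0.855, 4.69 ± 1.52 and 11.1 ± 0.622 CPM, and TNNT1, the slow skeletal troponin T, at 108 ± 8.84, 142 ± 30.7 and 84.7 ± 8.18 CPM. Which cells or transcripts these counts came from was not tested.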
